A study of Canis lupus familiaris with 34 samples.

Results

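The genes described here are the integrin subunits, cadherins and protocadherins of the dog, the main families of receptors that hold cells to the matrix and to each other. They were chosen by symbol: every gene of the array's platform annotation whose symbol starts with ITGA, ITGB, CDH or PCDH followed by a subunit name, with CDH1, CDH11 and the ITGB1BP and ITGB3BP binding-protein genes not included. This gave 58 genes on 113 probe sets, of which 17 are integrin alpha subunits, 8 are beta subunits, 19 are cadherins, 5 are cadherin-related CDHR genes and 8 are protocadherins. The last one, ITGBL1, is an integrin beta-like gene whose product carries repeats like those of the beta subunits. Of the 58 genes, 21 had a probe set bright enough to be kept, among 7812 such genes on the array.

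An integrin is a pair of an alpha and a beta chain that spans the membrane, binds collagen, laminin, fibronectin or a counter-receptor outside the cell, and couples to the actin cytoskeleton through adaptors such as talins and kindlins inside it. ITGB1 is the shared partner of most alpha chains, while ITGB2 is the beta chain of leukocytes. Cadherins bind the same cadherin on a neighbouring cell in the presence of calcium, the classical ones anchored inside by catenins, and protocadherins are a related family with other cytoplasmic tails. Bone-forming cells are known to use collagen- and fibronectin-binding integrins and N-cadherin (CDH2).

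The samples were canine osteosarcoma, a malignant bone tumour, measured on Affymetrix Canine_2 arrays. There were 3 arrays of lines from metastases, 25 of lines from primary tumours and 6 of snap-frozen primary tumour pieces, from 31 dogs in all. Each line came from 1 dog and is a cell population grown in culture, whereas a tissue array holds the RNA of whatever cells lay in the piece. Both line arrays of dog 22 (primary lines 19 and 22) were averaged and are called primary line 19, which left 24 primary lines. Among these were 10 female and 13 male dogs, 10 Rottweilers and 7 Golden Retrievers, the others being German Shepherd (one of these spelled Shephard), Alaskan Malamute, Great Pyrenees, Mastiff, Saint Bernard or of unknown breed, and their age labels ran between 2 and 11.19 with a median of 7.97. The metastatic lines came from 1 female and 2 male dogs, 2 of them Rottweilers and 1 a Rhodesian Ridgeback, with age labels of 2.39 to 6.31. The tissues came from 5 female dogs and 1 male, 3 of them Golden Retrievers, the others Belgian tervuren, Borzoi and Great Pyrenees, with age labels of 2.67 to 11.91. The labels name no engineered allele. The treatment label, in abbreviations that are not spelled out, was SOC for 1 metastatic line, PALL for 1 and absent for 1. For the primary lines it was SOC in 11, SOC* in 3, AMP in 3, PALL in 2, ABX in 1 and absent in 4, and for the tissues it was SOC in 3 and absent in 3. Primary line 19 is counted as SOC by its first array, while its second array had no treatment label. Sample titles open with 1 of 3 words, which no source used here explains; they are numbered here as title prefix 1, 2 and 3 and were treated as possible batches. The 3 metastatic lines all had prefix 2. Of the primary line arrays, 4 had prefix 1, 19 had prefix 2 and 2 had prefix 3, which was also the prefix of every tissue.

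All levels below are log2 of the deposited GCRMA intensity, and differences are on that log2 scale except where written as a fold. A level of 5 was taken as the edge of the dim range, because the arrays came without detection calls. Column medians were 8.11 to 8.40 in metastatic lines, 8.09 to 8.54 in primary lines and 8.31 to 8.71 in tissues. The actin 3′ probe set lay above the 5′ one by a median of 8.46 in primary lines, against 9.91 in tissues, a gap that widens with RNA degradation, and for GAPDH the medians were 3.05 in primary lines and 3.14 in tissues. All 12 tested macrophage markers were called lower in primary lines than in tissues by the rule given below, as were 9.05% of all genes. Of the 12, 9 had no primary line over 5 and were kept through the tissues, so the filter favoured their direction. The mean of the macrophage list was between 2.40 and 4.51 in primary lines, against 7.12 to 10.01 in tissues. Of 8 endothelial markers tested, 7 were called lower in primary lines by the same rule, 2 of them with no primary line over 5. Primary line 4 stood apart, with an endothelial list mean of 8.95 when the next highest primary line had 4.45, with the endothelial genes PECAM1 and EMCN both at 13.88, and with the macrophage-list genes LAPTM5, CD68 and CD14 at 13.74, 8.70 and 7.99. Results that rest on that line are given with and without it. In a bulk sample fewer cells of a type and less RNA per cell cannot be told apart.

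Many of these adhesion genes were dim, and 37 of the 58 were not kept. Over all genes, 7812 of 15115 were kept. Kept were 10 of the 17 integrin alpha chains, 5 of the 8 beta chains, ITGBL1, 4 of the 19 cadherins, 0 of the 5 CDHR genes and 1 of the 8 protocadherins. Of the 37 genes not kept, 30 had no sample over 5, the highest value among them being 4.23 for CDH5, the cadherin of endothelial junctions. CDH5 was at 3.88 in primary line 4 despite that line's PECAM1 signal, and a dim probe set says only that this probe set gave no signal over the cutoff. ITGAL and ITGAM, the alpha chains of lymphocytes and of myeloid cells, reached at most 2.78 and 2.52 on any array, tissues included. Also dim throughout were ITGA2B of platelets, the epithelial ITGB6 and CDH3, ITGA8 and ITGB8.

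The other 7 unkept genes were over 5 in only 1 or 2 samples, 6 of them in tissues alone. CDH15, the M-cadherin of muscle precursor cells, was at 10.55 in tissue 3 and 9.77 in tissue 6, and between 2.25 and 4.11 in the other 4 tissues. The mean of the skeletal muscle list was 4.28 in tissue 3 and 4.39 in tissue 6, the lowest of the 6 tissues. That list rests on 2 tested genes, and 1 of them, ACTA1, was also over 5 in 22 primary lines. Which cells gave the CDH15 signal was not tested. ITGA4 reached 5.59 in tissue 3, ITGA9 5.79 in tissue 1, and ITGAX, an alpha chain of dendritic cells and macrophages, 6.15 in tissue 5. ITGB4, the laminin-binding partner of ITGA6 in epithelia, reached 5.61 in tissue 2, and PCDH20 reached 5.06 in tissue 3. PCDH9 was the exception, over 5 only in primary line 6, at 6.04.

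**Figure D1:**
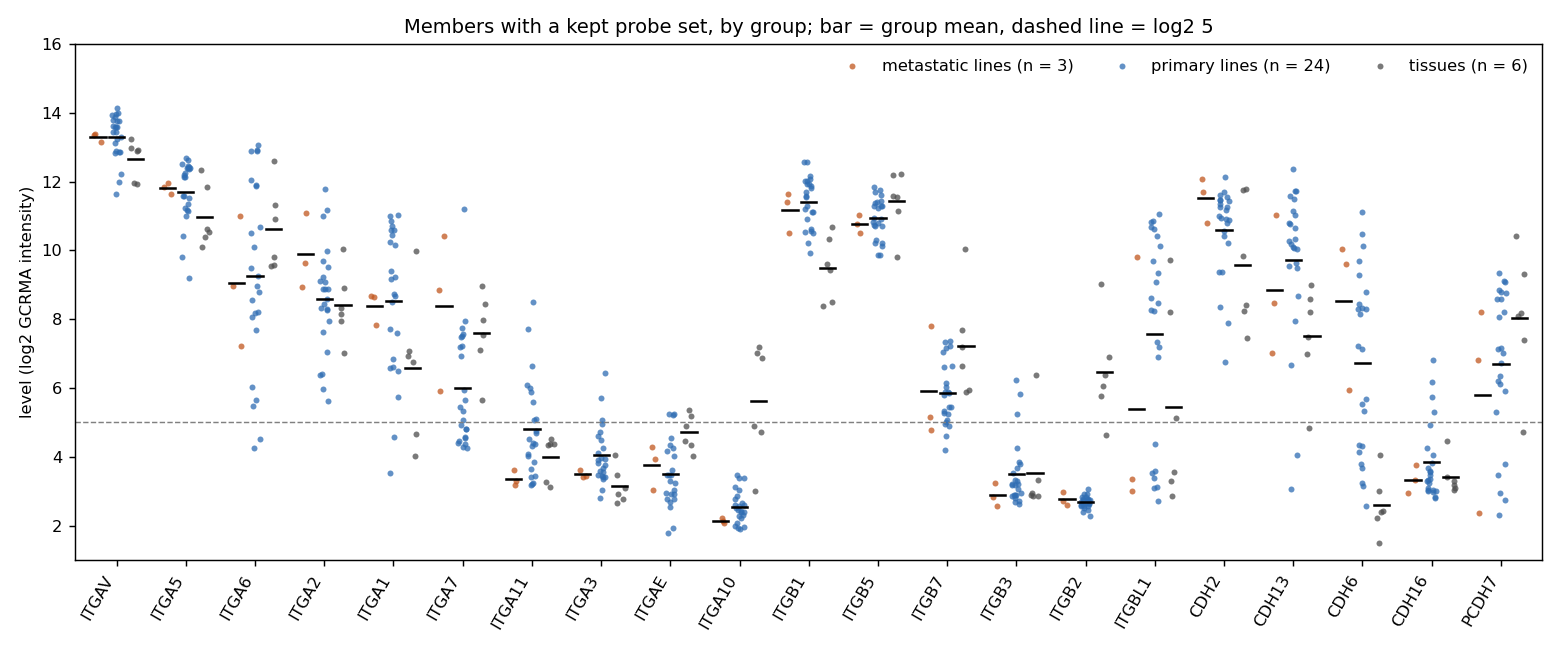
Level of the 21 kept genes (log2 GCRMA intensity) in metastatic lines, primary lines and tissues; each point is 1 line or tissue, bars are group means and the dashed line is the edge of the dim range at 5. ITGB2 and ITGA10 lie under 5 in all 27 lines and over it in most or some tissues, while CDH6 is over 5 in 16 primary lines and in no tissue.

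The first comparison, named in the series' own design, sets cell lines against tumour tissue. Primary lines carried more CDH6 and more ITGB1 transcript than tissues, and less of ITGB2, ITGA10, ITGB7 and ITGAE. Called here means an adjusted p under 0.05 in limma, over all 7812 genes, together with a change of at least 2-fold. By that rule 6 of the 21 kept genes were called, which is 28.6%, beside 14.6% of all genes tested. In the higher direction 2 were called (5.59% of all genes) and in the lower direction 4 (9.05% of all genes). The median difference over the 21 genes was 0.44, beside -0.05 over all genes. The filter favoured a lower level in lines for genes kept only through their tissue signal (ITGB2, ITGA10). It favoured a higher level in lines for those kept only through the lines (CDH6, ITGA3, ITGA11, CDH16). These shares therefore describe the kept genes and not the families.

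**Figure D2:**
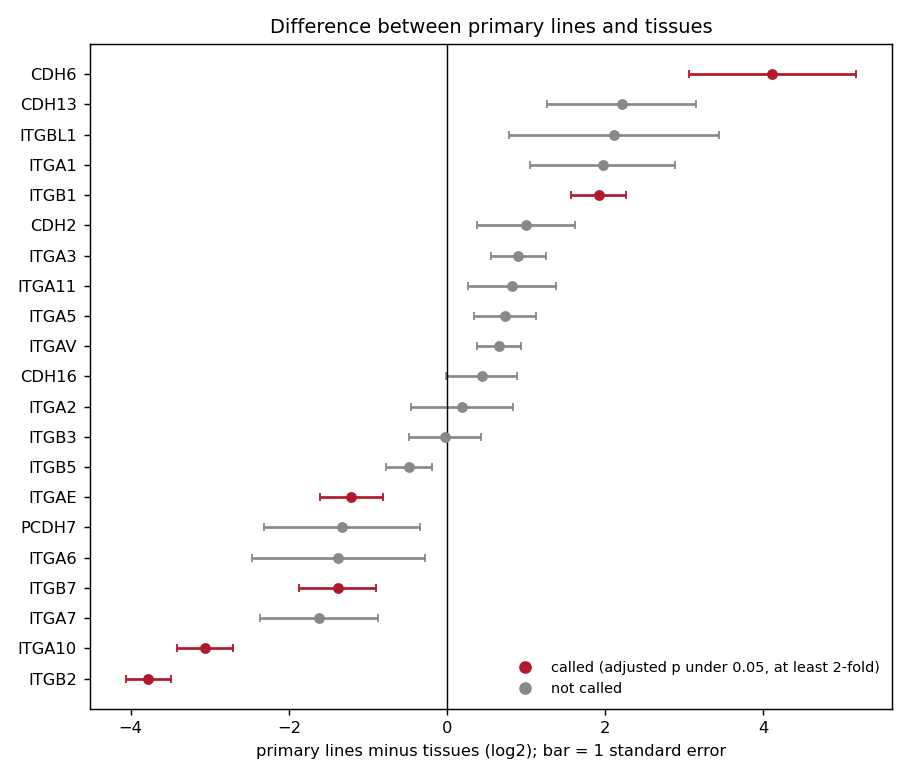
Difference between primary lines and tissues (log2, primary lines minus tissues) for the 21 kept genes with 1 standard error from limma; called genes are red. CDH6 is at 4.11 and ITGB2 at -3.78, the ends of the range.

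Among the beta chains, ITGB1 was higher in lines. It was between 9.93 and 12.58 in the 24 primary lines, with a median of 11.57, against 8.39 to 10.69 with a median of 9.51 in tissues. The ranges overlap, but 18 of 24 primary lines lay above the highest tissue and none below the lowest. The difference was 1.92 ± 0.34 (SE), or 3.77-fold, at an adjusted p of 9.8e-05 in limma. Where line and tissue came from 1 dog, the line was higher by 1.99 in dog 22 and by 2.40 in dog 23. The call was lost within title prefix 3, where the 2 primary lines exceeded the tissues by 1.21. It was also lost with title prefix as a covariate, which gives the same difference. A second kept ITGB1 probe set, dimmer, differed by 0.73 in the same direction and was not called.

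ITGB2, the leukocyte beta chain, showed the reverse. It was between 2.28 and 3.06 in all 24 primary lines, with a median of 2.68, against 4.62 to 9.03 with a median of 6.21 in tissues. All 24 primary lines lay below the lowest tissue, primary line 4 included, at 2.77. The limma difference was -3.78 ± 0.28 (SE) at an adjusted p of 1.8e-12, and because no line was over 5 it is best read as tissues being at least 2.74-fold higher. ITGB2 was kept through the tissues alone, so the filter favoured this direction. Its 2 other probe sets were over 5 in no sample and differed by -0.08 and -0.63. Tissue 5 had the highest ITGB2, at 9.03, and also the highest macrophage and leukocyte list means, at 10.01 and 9.46. Tissue 6 had the lowest ITGB2, at 4.62, and the lowest macrophage mean, at 7.12, but the lowest leukocyte mean was in tissue 4, at 6.05 against 6.79 in tissue 6. All 6 tested leukocyte markers were called lower in lines too, beside 9.05% of all genes. Of these 6, 4 had no primary line over 5 and were kept through the tissues, so the filter favoured their direction. No T or NK cell marker of the 11 listed had a kept probe set. How much of the ITGB2 difference these cells account for was not tested.

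ITGB7 and ITGAE, which pair with each other on lymphocytes of epithelia, were both lower in lines, with smaller and less stable differences. ITGB7 was between 4.20 and 7.36 in primary lines, with a median of 5.81, against 5.87 to 10.03 with a median of 6.92 in tissues. The difference of -1.38 ± 0.49 (SE, limma adjusted p 0.039) leaned on tissue 5, the tissue at 10.03, and was -0.82 and not called without it. Without tissue 1 it was -1.39, without tissue 3 -1.29 and within title prefix 3 -0.66, none of these called, and it was called in 11 of 18 alternatives. Of the primary lines, 11 lay within the range of the tissues. The other ITGB7 probe sets, not kept, differed by -0.53 and 0.13. ITGAE stayed close to the dim range on every array, between 1.79 and 5.25 in primary lines, with a median of 3.38, against 4.01 to 5.35 with a median of 4.68 in tissues. Its difference was -1.21 ± 0.40 (SE, limma adjusted p 0.025), with 16 of 24 primary lines below the lowest tissue. Its direction turned within title prefix 3, to 0.53, and the call was lost without tissue 3 (-1.17), tissue 5 (-1.08) or tissue 6 (-1.11). The other ITGAE probe sets, not kept, differed by -0.07 and 0.08.

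The other beta chains differed little between lines and tissue. ITGB5, the vitronectin-receptor partner of ITGAV, was over 5 in every sample, with 10.94 ± 0.60 in primary lines (SD, n = 24) and 11.42 ± 0.89 in tissues (SD, n = 6). All 24 primary lines lay inside the tissue range. The approximate 95% interval of the difference, a multiple of its standard error on each side, ran from -1.06 to 0.09. ITGB3, the other main ITGAV partner, was dim in most samples and over 5 in 3 primary lines and 1 tissue. The approximate interval of its difference ran from -0.94 to 0.88.

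Of the alpha chains, the collagen-binding ITGA10, known from cartilage, was lower in lines. It did not exceed 3.48 in any primary line, where its median was 2.49, against 2.999 to 7.19 with a median of 5.88 in tissues. Tissues 3, 4 and 6 were over 5, at 7.02, 7.19 and 6.88, while tissue 2, at 2.999, lay inside the range of the lines. The limma difference was -3.06 ± 0.36 (SE) at an adjusted p of 6.8e-08, and with no line over 5 tissues were at least 1.53-fold higher. Within title prefix 3 the difference was -3.11 and was not called.

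The collagen-binding ITGA1 and ITGA11 had higher means in lines without passing the test. ITGA1 averaged 8.54 ± 2.15 in primary lines (SD, n = 24) and 6.57 ± 2.11 in tissues (SD, n = 6). Within title prefix 3 its difference was -0.16, so the direction over all arrays did not hold there. ITGA11 was over 5 in 9 primary lines and in no tissue with the probe set used, and differed by 0.82 overall and by -0.93 within title prefix 3. Its second kept probe set was over 5 in 5 primary lines and 1 tissue and differed by 0.03. ITGA2 was over 5 in every sample, and the interval of its difference ran from -1.11 to 1.48.

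The fibronectin and vitronectin receptors ITGA5 and ITGAV were over 5 in every sample. ITGAV had 13.31 ± 0.65 in primary lines (SD, n = 24) and 12.65 ± 0.55 in tissues (SD, n = 6), a difference of 0.66 that was not called. A second ITGAV probe set differed by 1.32 in the same direction and was called, so the call for this gene depends on the probe set. ITGA5 differed by 0.73 and was not called.

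The laminin-binding chains did not move together. ITGA6 averaged 9.25 ± 2.74 in primary lines (SD, n = 24) and 10.63 ± 1.22 in tissues (SD, n = 6), and was over 5 in 22 of 24 lines and 6 of 6 tissues. Its difference of -1.37 was not called and became 2.50 within title prefix 3, where both lines were among the brightest for this gene. ITGA7 averaged 5.99 ± 1.73 in primary lines (SD, n = 24) and 7.61 ± 1.16 in tissues (SD, n = 6), not called. Without primary line 4, the line with the highest ITGA7 at 11.22, the difference was -1.85 and was called. ITGA3 was over 5 in 3 primary lines and no tissue, with a difference of 0.90 at an adjusted p of 0.058 in limma. Within title prefix 3 the ITGA3 difference was 3.85 and was called.

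Among the cadherins, CDH6, first known from kidney as K-cadherin, differed most. It was between 2.58 and 11.12 in primary lines, with a median of 7.18, against 1.502 to 4.05 with a median of 2.41 in tissues. Of the 24 primary lines, 19 lay above the highest tissue, and the other 5 lay within the tissue range. The limma difference was 4.11 ± 1.06 (SE) at an adjusted p of 0.0048, and with no tissue over 5 lines were at least 3.28-fold higher. The gene was kept through the lines alone, so its direction was favoured by the filter. Under the 18 alternative settings the difference was 3.59 to 7.88, with limma adjusted p of 0.0011 to 0.036. Where line and tissue came from 1 dog the line was higher, by 7.27 in dog 22 and by 5.72 in dog 23. A second, dimmer CDH6 probe set differed by 1.36 and was not called.

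CDH13, the T-cadherin that is held by a lipid anchor without a cytoplasmic tail, was higher in lines by 2.21 ± 0.95 (SE) and was not called, at an adjusted p of 0.089 in limma. It was called in 3 of 18 alternatives, with limma adjusted p up to 0.34. Of the primary lines, 19 lay above the highest tissue, but primary lines 4 and 7 lay below the lowest one. Without primary line 4 the difference was 2.50 and was called, as was a second CDH13 probe set, at 3.06, with no tissue over 5. CDH2, the N-cadherin of mesenchymal cells, was over 5 in every sample, between 6.76 and 12.12 in primary lines and between 7.46 and 11.77 in tissues. It differed by 1.00 and was not called. CDH16 was dim outside 4 primary lines. PCDH7, the only protocadherin kept, averaged 6.69 ± 2.23 in primary lines (SD, n = 24) and 8.02 ± 1.94 in tissues (SD, n = 6), and was not called.

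**Figure D3:**
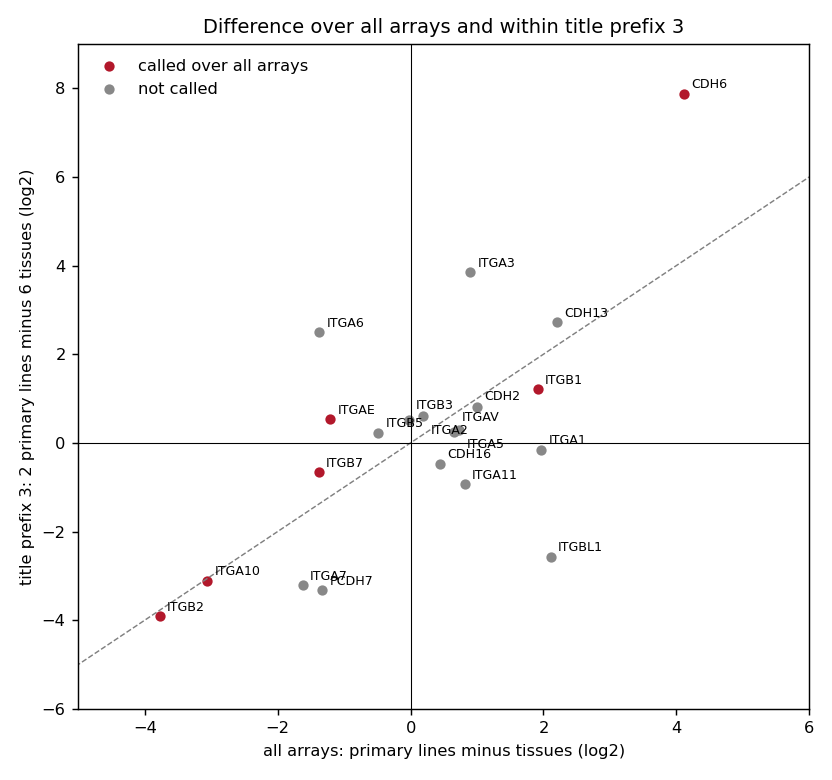
Difference between primary lines and tissues (log2) over all arrays on the horizontal axis and within title prefix 3 on the vertical axis, for the 21 kept genes; the dashed line marks equal values. ITGB2, ITGA10 and CDH13 lie near it, CDH6 and ITGA3 lie above it at 7.88 and 3.85, and ITGA6, ITGBL1 and ITGAE lie in a quadrant where the sign differs.

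All tissues carried title prefix 3, so only its 2 primary lines, line 23 and the second line array of dog 22, could be set against tissues within 1 prefix. There 2 of the 21 genes were called (3.2% of all genes), CDH6 at 7.88 and ITGA3 at 3.85. With title prefix as a covariate in the full fit, the differences were again those of these 2 lines against the tissues. Only the spread was estimated over all arrays, and 4 genes were called (6.11% of all genes): CDH6, ITGA3, ITGB2 and ITGA10. The 2 line arrays of dog 22, which carried prefixes 2 and 3, themselves differed: ITGA3 was 7.58 under prefix 3 and 3.87 under prefix 2, and ITGA6 was 13.34 under prefix 3 and 10.39 under prefix 2. ITGA5 was 10.26 under prefix 3 and 8.13 under prefix 2. For ITGA3 and ITGA6 the prefix and the lines that happen to carry it cannot be told apart.

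Lists of genes that work with these receptors were counted beside the 14.6% of all genes called. Of 22 tested adaptors and effectors of integrins, 1 was higher in lines, the actin-binding focal adhesion protein ZYX, by 1.94. Another was lower, FERMT3, the kindlin of blood cells; it was over 5 in no primary line, and tissues were at least 1.48-fold higher. Of 9 tested catenins and cadherin partners, VEZT was higher by 1.06 and CTNNAL1 lower, at -2.60. The median differences of these lists were 0.33 and 0.00, beside -0.05 over all genes. Of 33 integrin ligands tested, 4 were higher in lines and 6 lower, with a median of -0.18. The bone matrix proteins IBSP and SPP1, both integrin ligands made by bone-forming cells, were lower in lines. SPP1 differed by -7.38, and IBSP, over 5 in no primary line, was at least 75.2-fold higher in tissues. ICAM2, a ligand of ITGB2 integrins found on endothelium, differed by -4.45, and was at 10.89 in primary line 4. The laminin chain LAMA1, also over 5 in no primary line, was at least 1.83-fold higher in tissues. The ligands named here had the largest absolute differences, and all were lower in lines. Those called higher in lines had smaller differences and are not named.

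Next, the lines were compared with each other. Of the 21 kept genes, 6 were over 5 in all 24 primary lines: ITGAV, ITGA5, ITGA2, ITGB1, ITGB5 and CDH2. A further 8 were over 5 in 14 to 22 lines, 5 in 3 to 9 lines, and ITGB2 and ITGA10 in none. The 6 genes with the largest SD over primary lines were ITGBL1, ITGA6, CDH6, CDH13, PCDH7 and ITGA1. ITGBL1 had the widest spread (SD 2.98), from 2.73 in line 23 over a median of 8.38 to 11.07 in line 14. ITGA6 followed (SD 2.74), from 4.26 in line 7 over a median of 9.12 to 13.08 in line 4.

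CDH6 ranged from 2.58 in line 8 over 7.18 to 11.12 in line 7 (SD 2.64). CDH13 ranged from 3.05 in line 4 over 10.23 to 12.37 in line 24 (SD 2.28). These 2 cadherins were at opposite ends in line 7, which had the highest CDH6 of all lines and CDH13 at 4.06. PCDH7 ranged from 2.31 in line 4 over 7.08 to 9.34 in line 13 (SD 2.23), and ITGA1 from 3.52 in line 12 over 8.95 to 11.02 in line 17 (SD 2.15). Each of these 6 genes was under 5 in at least 2 lines and over 9 in others.

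**Figure D4:**
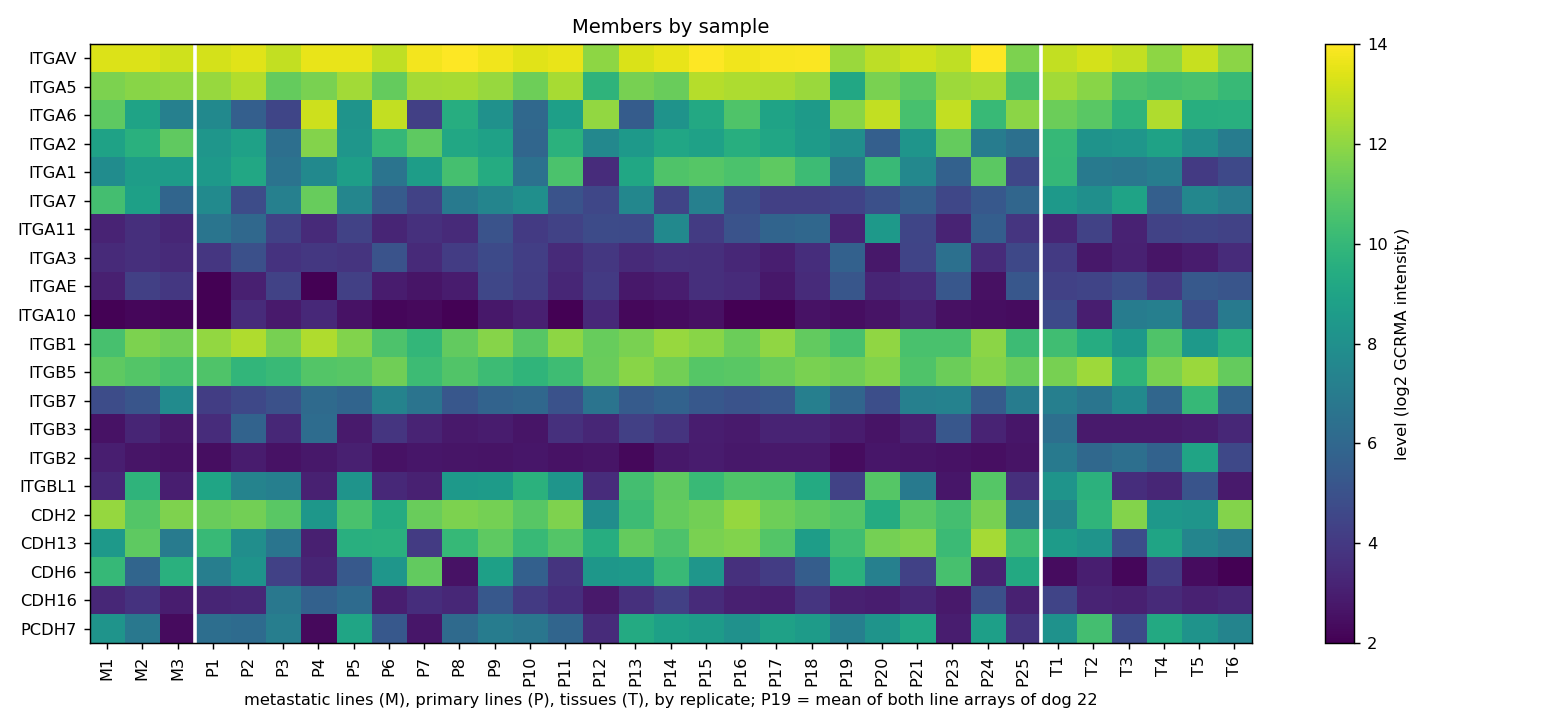
Level of the 21 kept genes (log2 GCRMA intensity, colour scale) in each metastatic line (M), primary line (P) and tissue (T); white lines part the groups. ITGAV, ITGA5, ITGB1 and ITGB5 are over 5 in every sample, while ITGA6, ITGBL1, CDH6, CDH13 and PCDH7 switch between dim and bright from line to line.

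Primary line 4 was the highest line for ITGA2, ITGA6, ITGA7, ITGB1 and ITGB3 and the lowest for CDH13 and PCDH7, so it was an extreme in 7 of 21 genes. Over all genes tested it was an extreme in 32.1%, so the share among the adhesion genes is near that of the whole array. Primary lines 5 and 9, from different dogs, correlated at 0.979 over all genes, the highest of all pairs, against a median of 0.889 over pairs of primary lines and 0.920 between both line arrays of dog 22. The 21 genes differed between lines 5 and 9 by a median of 0.42, and CDH6 by 3.46. Leaving out line 9 left the number of called genes at 6.

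The next comparison asked whether an integrin alpha chain and its beta partner vary together over the primary lines. This was computed for the 8 known pairs in which both chains were over 5 in at least 6 lines, with two-sided permutation tests of 100000 draws and adjustment over the 8 pairs. Levels of ITGB1 followed those of ITGA11 (r = 0.56, rho = 0.63) and ITGA1 (r = 0.52, rho = 0.55). They did not follow those of ITGA2, which also binds collagen (r = 0.01, rho = 0.09). ITGA11 was over 5 in only 9 of the lines. How ITGB1 correlates with genes in general is not given here. The permutation p for r was 0.0041, adjusted 0.033, for ITGA11, and 0.0091, adjusted 0.036, for ITGA1; for rho the adjusted permutation p were 0.010 and 0.025. Without the 2 lines farthest from the median of the alpha chain, r was 0.55 for ITGA11 and 0.49 for ITGA1. Within the 19 lines of title prefix 2, with dog 22 by its average, r was 0.64 for both, adjusted permutation p 0.013 for both.

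The other alpha chains did not pass. ITGAV had r = 0.43 with ITGB1 (permutation p 0.037, adjusted 0.098, rho 0.29, adjusted permutation p for rho 0.34) and 0.31 without the 2 lines farthest from the median. ITGA5 had r = 0.39 (permutation p 0.055, adjusted 0.11, rho 0.39, adjusted permutation p for rho 0.17) and 0.33 without 2 lines. ITGA7, ITGA6 and ITGA2 had r of 0.33, -0.12 and 0.01 with ITGB1, and ITGAV had -0.20 with ITGB5. Their rho were 0.19, -0.14, 0.09 and -0.10, and the adjusted permutation p of these 4 pairs were 0.18 to 0.96 for r and 0.61 to 0.69 for rho. With the most variable probe set of each gene, by interquartile range, 4 pairs passed: ITGAV reached r = 0.67 (rho 0.67) and ITGA5 r = 0.52 (rho 0.45), beside ITGA11 and ITGA1. For ITGA5 the adjusted permutation p was 0.061 for rho and 0.069 within title prefix 2, while for ITGAV these were 0.0047 and 0.028. Without primary line 4, r was 0.69 for ITGA11 and 0.59 for ITGA1. The points share the array platform and its normalization, and with quantile normalization 2 pairs passed as well.

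**Figure D5:**
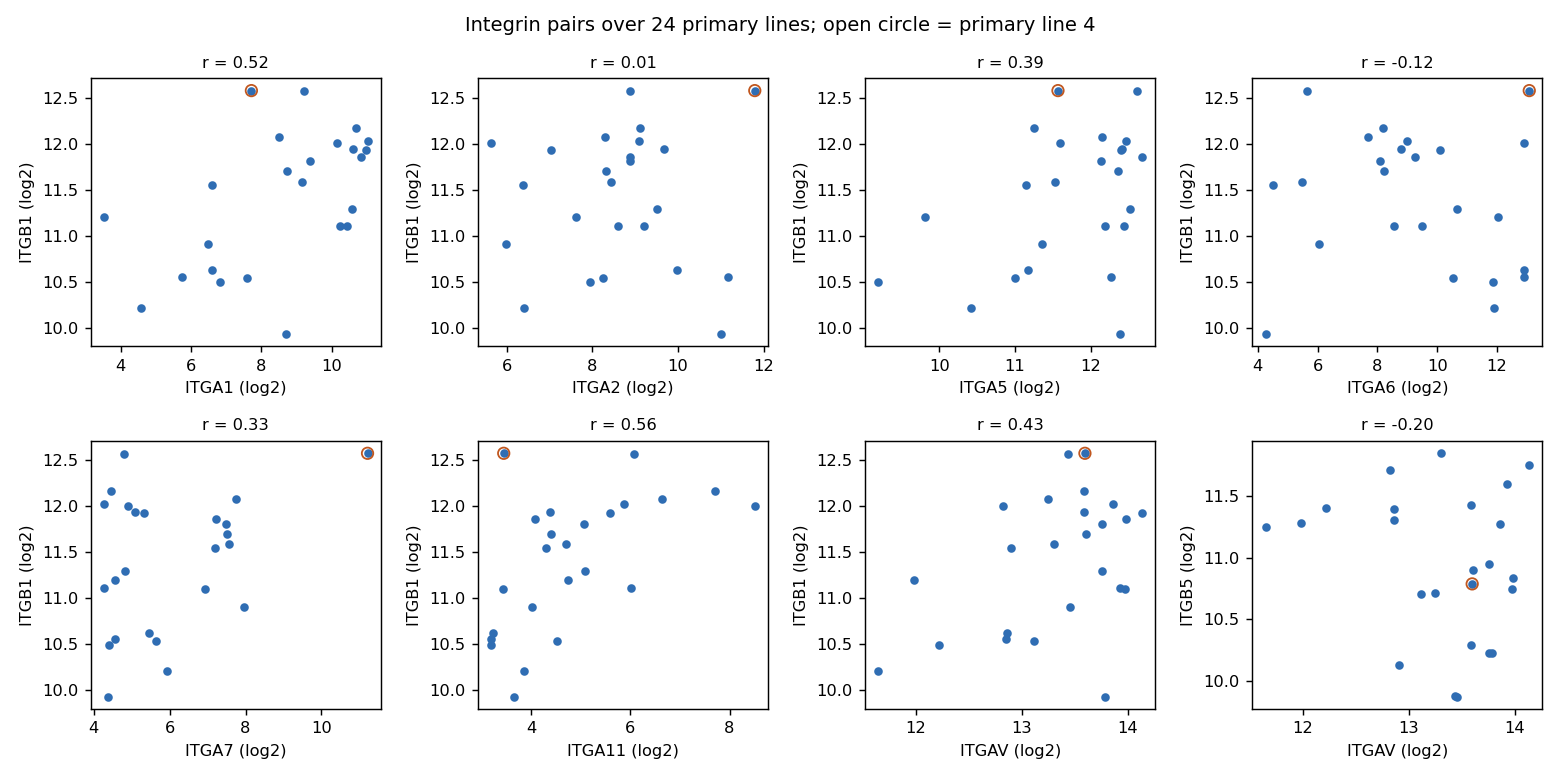
Level of each integrin alpha chain (horizontal, log2 GCRMA intensity) and its beta partner (vertical, log2 GCRMA intensity) over 24 primary lines, with Pearson's r; the open circle is primary line 4. The points for ITGA11 and ITGA1 against ITGB1 climb from lower left to upper right, with primary line 4 above the cloud.

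Metastatic lines were compared with primary lines to ask whether adhesion genes differ by the origin of the line. None of the 21 genes was called in limma, where 0.0128% of all genes were. One gene was under an unadjusted p of 0.05 (6.8% of all genes were): ITGA7, at 10.41, 8.84 and 5.91 in metastatic lines 1, 2 and 3, against 4.27 to 11.22 with a median of 5.39 in primary lines. The groups overlap, but metastatic lines 1 and 2 were exceeded by primary line 4 alone, at 11.22. The next highest primary line, line 10, had 7.96. Without primary line 4, none of the 21 genes was called either. With all lines the ITGA7 difference was 2.40 ± 1.00 (SE), at a limma adjusted p of 0.64. Leaving out metastatic line 1 gave 1.39 and leaving out metastatic line 3 gave 3.64.

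Several genes also spread widely among the 3 metastatic lines. CDH6 was at 10.04, 5.93 and 9.60 in metastatic lines 1, 2 and 3, against 2.58 to 11.12 in primary lines, a difference of 1.81 ± 1.42 (SE) that was not called. ITGBL1 was at 3.34, 9.81 and 3.02 in metastatic lines, against 2.73 to 11.07 in primary lines, and PCDH7 was at 8.22, 6.81 and 2.35 in metastatic lines, against 2.31 to 9.34 in primary lines. ITGB7, at 7.81 in metastatic line 3, was the only gene of the 21 with a metastatic line above all primary lines, the highest of which had 7.36. Without primary line 4, ITGA7 would be another. How many of all genes have such a line is not given here. ITGA11 was dim in all 3 metastatic lines, at 3.19 to 3.61, and over 5 in 9 of 24 primary lines. Standard errors of these differences were 0.38 to 1.78, and for the most variable genes a difference as large as that of ITGB1 above was not detectable with 3 metastatic lines.

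Survival was tested over 11 primary lines, those with the plain treatment label SOC, which is not spelled out. No gene of the 21 was called in limma, and 0% of all genes were. Under an unadjusted p of 0.05 (4.89% of all genes) were 2: CDH16, at -0.58 ± 0.24 (SE) per doubling of the survival label, and ITGA2, at 0.42 ± 0.19 (SE), both at a limma adjusted p of 0.90. No source used here gives the time unit of that label or any censoring.

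Breed was compared between 10 Rottweiler and 7 Golden Retriever primary lines with sex as a covariate. None of the 21 genes was called in limma, where 0.0256% of all genes were. Under an unadjusted p of 0.05 (10.9% of all genes) were 4: CDH13, ITGA1, CDH16 and ITGA10. CDH13 was at 4.06 to 11.03 with a median of 9.59 in Rottweiler lines, against 10.09 to 11.72 with a median of 10.79 in Golden Retriever lines, a difference of -2.15 ± 0.83 (SE, limma adjusted p 0.39). ITGA1 was at 3.52 to 10.44 with a median of 7.64 in Rottweiler lines, against 6.83 to 11.02 with a median of 10.15 in Golden Retriever lines, a difference of -2.27 ± 0.94 (SE, limma adjusted p 0.42). For both genes the ranges overlap. CDH16 and ITGA10 differed by 1.20 and 0.55, and ITGA10 was dim in every line of both breeds.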

How the data were processed

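Biotin-labelled total RNA was hybridised, and the deposited intensity of each probe set came from GCRMA, per the submitters' processing notes, whose version and settings no source used here gives. The deposited values were linear and at least 1, and log2 was taken of them. Arrays have no read depth, and their number limits the precision.

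Of 43035 probe sets, 175 controls were left out, 29254 had 1 gene symbol in the platform annotation, 439 had several and 13167 were not listed. ITGAD occurs only among probe sets with several symbols and was not used. Groups came from the source label of each sample. Both line arrays of dog 22 were averaged, leaving 33 columns. A probe set was kept where log2 exceeded 5 on at least 3 columns, and the kept probe set with the highest mean stood for its gene (7812 genes). Different probe sets of 1 gene were compared, and the text says where they differ in call. Tests used limma 3.58.1 in R 4.3.3 (lmFit, eBayes, 1 fit of 3 groups, Benjamini-Hochberg over all genes), tested on simulated data, and summaries used Python 3.11.15. Where no sample of a group exceeded 5, the fold is a bound with each dim array set to at least 5.

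The members, lists and tests were chosen with earlier results of these data known. Any member could be named with its group values, called members with full statistics, the 6 most variable over primary lines with their range, and at most 4 genes of each list. Over all genes, 14.6% were called in primary lines against tissues. The lists not described in the report showed these counts of tested genes called in primary lines against tissues: B and plasma cell 0 of 1, platelet 1 lower of 2, osteoclast 3 lower of 4, osteoblast 4 lower of 6, pericyte and smooth muscle 1 higher and 2 lower of 7, skeletal muscle 0 of 2, epithelial 0 of 2, adipocyte 3 lower of 4, neural and glial 1 higher of 2, and erythroid none tested.

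Dogs 22 and 23 gave both a line and a tissue, per the labels. Their line and tissue deviated from the group means with a correlation of 0.158 for dog 22 and -0.175 for dog 23, and a random block for dog had an estimated correlation of -0.025. Lines came from separate dogs otherwise. Alternatives covered the filter, the probe set per gene, quantile normalization, array weights, the block, title prefix, sex, and leaving out single samples. No sequences were used.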

Additional observations from a re-analysis of the deposited data

Results flagged for a closer look

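Within the 6 tissues, 2 of the 21 kept genes had 1 sample far from the others by Dixon's test, which chance gives for about 1 in 20 groups. ITGB3 was at 6.37 in tissue 1, while the other 5 tissues lay between 2.85 and 3.32. CDH16 was at 4.45 in tissue 1, while the next highest tissue had 3.42, and all 6 values lay under 5. ITGB3 is also the beta chain of platelets. Tissue 1 had the highest endothelial list mean of the tissues, at 10.67, and the highest mean of the platelet list, at 6.998 over its 2 tested genes. Primary line 4, the line with the highest ITGB3, had a platelet list mean of 7.12. Primary lines 2 and 23, with ITGB3 at 5.835 and 5.256, had platelet list means of 2.575 and 2.569. ITGA2B of platelets was dim in tissue 1, at 2.76, and in primary line 4, at 1.926. The part of platelets or endothelial cells in the ITGB3 value was not tested.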

How the results depend on the processing

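In primary lines against tissues, 6 genes were called, beside 14.6% of all genes. The count was 10 of 58 with no filter on dim probe sets (CDH15, ITGA4, ITGA9 and ITGAX added; 8.94% of all genes), 3 of 14 with the filter at log2 7 (13.6%), 2 of 21 within title prefix 3 (3.2%), and 4 to 7 when single tissues were left out. With the dog as a random block (replicate block) it was 6, and the pairing changed no call. Leaving out primary line 9 gave 6; this setting, in every comparison, and leaving out primary line 4 for the integrin pairs were chosen after seeing the data, and each left 2 pairs passing. Of 105 differences of the called genes under alternatives, 88 kept direction and call, 15 kept direction only, and 2, both of ITGAE, turned. Title prefix as a covariate and title prefix 3 alone give the same difference, so both turns of ITGAE are 1 estimate. Directions turned in both settings for CDH16 (-0.47), ITGA1 (-0.16), ITGA11 (-0.93), ITGA6 (2.50), ITGAE (0.53), ITGB3 (0.51), ITGB5 (0.23) and ITGBL1 (-2.57). ITGA2 turned with array weights (-0.068), in females alone (-0.17) and without tissue 6 (-0.086), and ITGB3 with quantile normalization (0.002) and without tissue 1 (0.54). Array weights called 9 genes (18.8% of all genes), adding CDH13, CDH2 and ITGA1. The causes were not tested. Of the integrin pairs, 2 passed, and 4 with the most variable probe set by interquartile range. No gene was called by metastatic origin, survival or breed under any alternative run.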

Other observations

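Dogs 22 and 23 each gave a line and a tissue, and the differences between line and tissue are set side by side here. With 2 dogs there is no test. Of the 21 kept genes, 5 were higher in the line of both dogs, 7 were lower in the line of both, and 9 differed in opposite directions. These counts go by sign alone and include very small differences in dog 22, such as CDH16 (-0.055), ITGB3 (-0.05) and ITGA2 (0.01). The same counts over all genes are not given here. ITGBL1 was 10.86 in the line of dog 23, against 2.85 in its tissue, a line minus tissue difference of 8.01, while the same difference was -0.76 in dog 22. The 2 line arrays of dog 22, at 5.70 and 3.04, lay on either side of its tissue, at 5.13. ITGA11 differed by 4.16 in dog 23 and by -1.33 in dog 22. The mesenchymal cadherin CDH2 was lower in the line of dog 23, at -2.38, and higher in that of dog 22, by 2.55. ITGA1 was higher in the line of both dogs, by 2.81 in dog 22 and 5.50 in dog 23, and so was CDH13, by 2.86 in dog 22 and 4.51 in dog 23. The laminin receptor ITGA6 was likewise higher in both lines, by 2.33 in dog 22 and 3.32 in dog 23, although over all samples its mean was lower in primary lines than in tissues. ITGA7 was lower in both lines, at -3.14 in dog 22 and -2.19 in dog 23.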
